A study of Salmo salar with 20 samples.

Results

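The effect of soyasaponins in salmon fed rapeseed meal (RSM + S) was described from the 4 arrays whose titles name rapeseed meal, out of 20 arrays in the series. Post smolts of Atlantic salmon with a mean weight of 270 g, were kept in seawater for 80 days on a feed with rapeseed meal and 2 g/kg of soyasaponins. On each array, distal intestinal RNA of 1 such fish was compared with 1 pool of RNA from 12 fish on the rapeseed meal feed without saponins. The other 16 arrays had the same layout for saponins with corn gluten (CG + S), horse bean meal (HBM + S), sunflower meal (SFM + S) and pea protein concentrate (PPC + S), 4 fish each and a pool of its own for each diet. The value throughout is the log2 ratio of a fish over its pool, so that 1 stands for a doubling and -1 for a halving of the signal. The fish of a diet came from 2 tanks, 2 fish from each, and the tank of each fish is not given, so that tests over the 4 fish treat them as independent and their p can be too small. As the control was a single pool, the spread between control fish does not enter the tests.

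Saponins are plant glycosides in which a water-soluble sugar part is joined to a fat-soluble core, and they interact with cholesterol in cell membranes. Legume saponins are known in salmon for their part in inflammation of the distal intestine, the segment whose vacuolated enterocytes take up intact proteins. Rapeseed meal is the residue of Brassica seeds after oil extraction and brings plant compounds of its own, such as glucosinolates. The comparison of each fish with a pool on the same protein source was designed to separate the effect of saponins from that of the plant ingredient, and the comparison between diets asks whether the protein source alters that effect.

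Of 21322 probes, each spotted 2 times, 18398 (86.3%) had a value in all 4 RSM + S fish and were tested. Between 60.05% and 65.96% of the probes were well above background in both colours on these arrays. No gene is named for a probe in the files, and gene names below are those of the entries of the study's gene lists whose fold change and SE in PPC + S a probe carries. Probes with the values of intestinal fatty acid-binding protein, apolipoprotein A-IV and lactase-phlorizin hydrolase, which enterocytes express, were well above background in both colours on 4 of 4 RSM + S arrays. The arrays of a diet shared 1 slide, so that slide and diet cannot be told apart. Labels and methods give Cy5 for fish and Cy3 for pools, but the deposited ratios of fish 1 and fish 3 run against the scanner files read so, while those of fish 2 and fish 4 run with them (the size of Pearson's r lay between 0.71 and 0.77 over the spots of an array, and spots are no replicates). Fish numbers are those of the deposited ratios. The scanner file of each was found by this correlation within the diet, since no RSM + S file matched the ratios of its own fish number (r between -0.11 and 0.20). The direction of the deposited ratios was kept, and every sign given for fish 1 and fish 3 rests on it. Across probes, r was 0.18 between fish 1 and fish 3 and 0.33 between fish 2 and fish 4, pairs with the same array direction, and between -0.15 and 0.04 in the 4 pairs of opposite direction.

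Saponins with rapeseed meal moved few probes in the same way in every fish. With a mean change over 1.6-fold and an adjusted p under 0.05 (limma, Benjamini-Hochberg over all 18398 probes), 3 probes fell and 0 rose, which is 0.0163% of the probes tested. Without adjustment, limma called 93 probes (0.505%), with 9 above the pool (0.0489%) and 84 below it (0.457%). By the methods' t-test, a one-sample test of each probe, 61 were called without adjustment (0.332%), with 3 above the pool (0.0163%) and 58 below it (0.315%), and 0 after adjustment. Leaving out the fold limit, 1034 probes (5.62%) had an unadjusted limma p under 0.05. All 4 fish lay on the same side of 0 for 2431 probes (13.2%), 1298 of them higher and 1133 lower than the pool. In bulk RNA, fewer cells of a type and less RNA per cell cannot be told apart, and this holds for every value given here.

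The mean change over the 4 fish ranged between -2.94 and 1.37, and its median over all probes was 0.01. In RSM + S, 141 probes had a mean over 1.6-fold. CG + S had 68 such probes, HBM + S 122, SFM + S 92 and PPC + S 1508. In single RSM + S fish, 3.09%, 2.50%, 1.96% and 1.75% of the probes differed from the pool by over 1.6-fold (fish 1 to 4). Only 2 probes exceeded this limit upwards and 6 downwards in 4 of 4 RSM + S fish, while 138 and 206 did so in PPC + S. The SD between fish had a median of 0.143 over all probes in RSM + S, the lowest of the 5 diets. It was 0.157 with CG + S, 0.195 with HBM + S and 0.172 with both SFM + S and PPC + S.

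**Figure D1:**
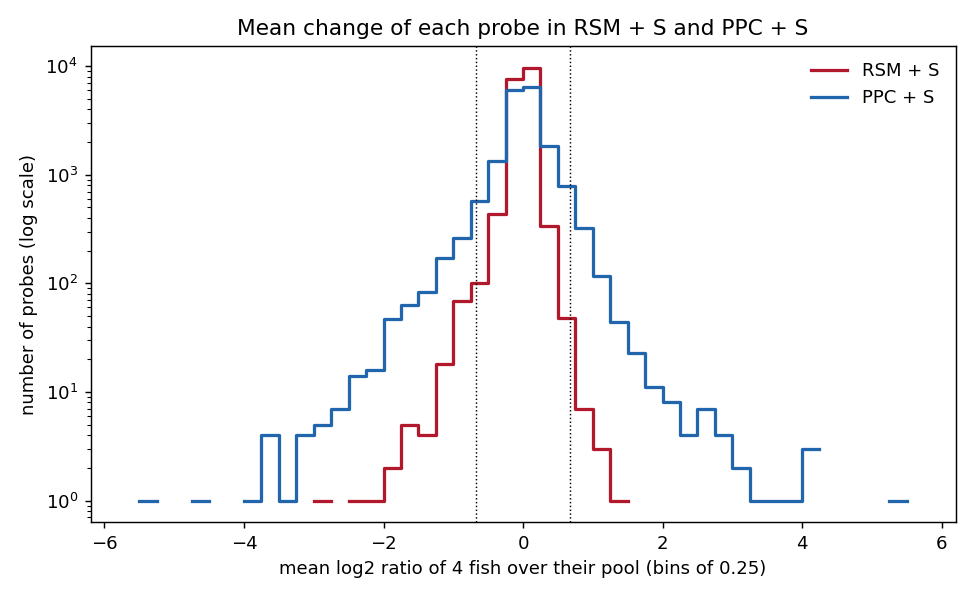
Number of probes (log scale) by their mean log2 ratio over 4 fish, in bins of 0.25, for RSM + S (18398 probes) and PPC + S (18256 probes); the dotted lines mark 1.6-fold. The RSM + S means lie between -2.94 and 1.37 and crowd around 0, with more of the larger ones below 0 than above it, whereas those of PPC + S spread to both sides.

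The largest fall past the limits was that of Ssa#S32009808, for which the files give no gene name. Its log2 ratio was -2.39, -2.50, -2.25 and -2.50 in the 4 RSM + S fish, a mean of -2.41 ± 0.12 (SD, n = 4; limma, adjusted p = 0.00129). On all 4 arrays its fish channel was not well above background while the pool channel was. From the scanner files it was therefore at least 1.78-fold lower in the fish, counting the dim channel at no less than the lowest signal well above background, although the deposited ratios give a fold of 5.32. In the other diets the same probe lay far from 0 on every array but on either side of it. It lay between -3.39 and -3.11 in PPC + S, and the CG + S fish took -3.58, 1.98, -3.27 and 1.58. HBM + S had 1 fish of 4 above 0 and SFM + S 3 of 4. Only 2 of the 16889 probes with values on all 20 arrays exceeded 1.6-fold on every one of them with both signs, and this was 1 of the 2.

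Ssa#GRASP209155977 had -2.09, -2.02, -2.02 and -2.29 in RSM + S, a mean of -2.11 ± 0.13 (limma, adjusted p = 0.00167), and both its channels were well above background on 4 of 4 arrays. The probe was chosen for its level in the RSM + S fish. RSM + S fish and the other 16 did not overlap for 10 of 16889 probes (0.0592%). For this probe, the 4 RSM + S values lay below all 16 values of the other diets. Those were split as well, with 3 of 4 fish of each of CG + S, HBM + S and SFM + S between -1.98 and -0.86 and the remaining fish between 1.23 and 1.56, and with PPC + S at -0.57, 1.96, 1.67 and -0.73. The remaining probe past the limits had -0.97, -1.16, -1.15 and -1.24 in RSM + S (mean of -1.13 ± 0.11; limma, adjusted p = 0.0241). It had -1.84, -1.88, -1.57 and -2.32 in PPC + S, so that every fish of both diets lay below its pool. This was also so in HBM + S, with -0.80, -0.32, -0.89 and -0.98, and in SFM + S, with -0.41, -0.27, -0.24 and -1.03. CG + S was split, with -1.38, 0.50, 0.83 and -0.65. The RSM + S fish overlapped with those of CG + S, HBM + S and SFM + S, while every PPC + S fish lay lower. This probe was not past the limits without RSM + S fish 2, without fish 3 or without fish 4. Its means were then -1.12, -1.13 and -1.10. The first 2 probes remained past the limits with any single fish left out. With all 20 arrays in 1 fit none of the 3 was past the limits, and with the dyes taken as stated 0 probes were.

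No probe that was higher than the pool passed the limits, and the 2 largest means by the methods' t-test were those of Ssa#S32011765 and Ssa#GRASP223647629. Ssa#S32011765 had 1.14, 1.26, 0.88 and 1.27 in RSM + S (mean of 1.14 ± 0.18; limma, adjusted p = 0.0548), while the fish of the other 4 diets lay between -1.26 and 0.45. Ssa#GRASP223647629 lay between 0.98 and 1.35 in the 4 fish (mean of 1.11 ± 0.17; limma, adjusted p = 0.0548), while the other diets lay between -0.86 and 0.49. For neither probe did the RSM + S fish overlap with the other 16 fish, as was so for 10 of 16889 probes (0.0592%), but both were chosen for their level in the RSM + S fish. When only the 12387 probes well above background in both colours on 4 of 4 arrays were tested, both were past the limits, each with an adjusted p of 0.0440 from limma.

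**Figure D2:**
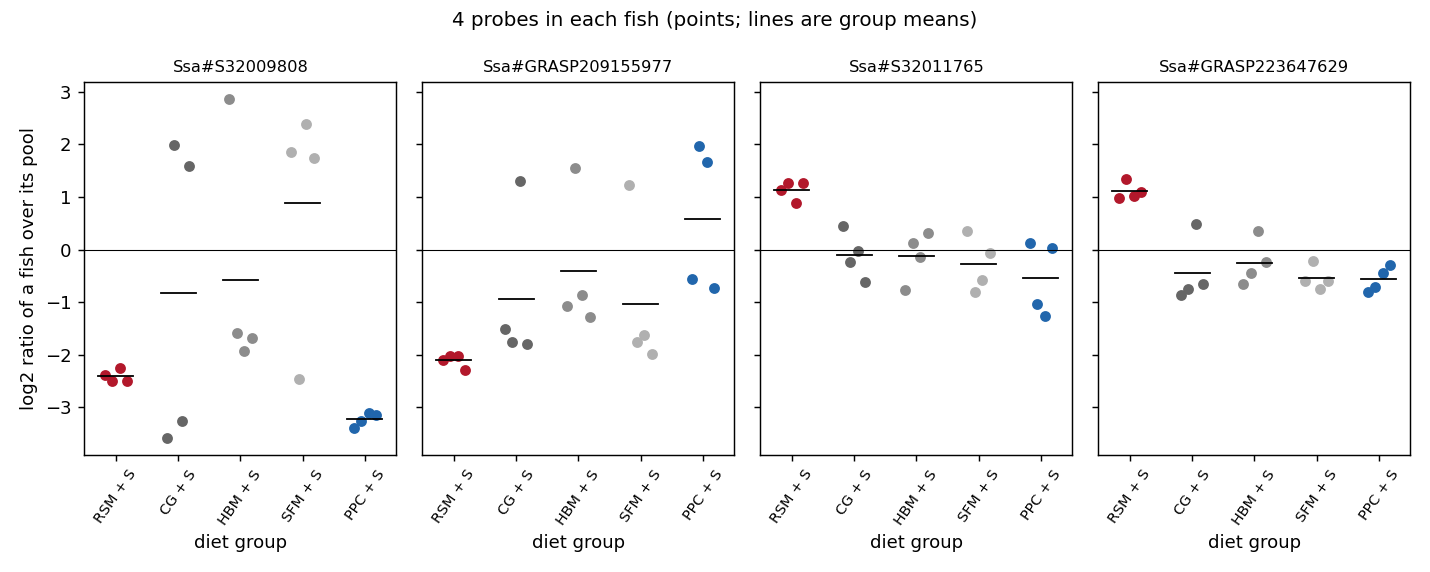
Log2 ratio of each fish over its pool (points; lines are group means, n = 4 fish per diet) for 2 probes that fell in RSM + S and 2 whose mean was above 0 but did not pass the limits. The RSM + S points lie close together in each panel, from -2.50 to -2.02 for the first 2 and from 0.88 to 1.35 for the others, whereas both probes that fell take values on either side of 0 in other diets.

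Whether the response to saponins with rapeseed meal differed from that with the 3 other protein sources given with it, CG, HBM and SFM, was tested as the difference of RSM + S from the mean of these diets. It was past the limits for 2 of 16974 probes (0.0118%), both higher in RSM + S (limma, adjusted p), and for 68 without adjustment (0.401%), 28 higher (0.165%) and 40 lower (0.236%). One was Ssa#GRASP223647629, with a difference of 1.52 and an adjusted p of 0.0442. It was not past the limits with fish number or array direction as a block (adjusted p = 0.0606 and 0.0532) or with any single RSM + S fish left out (0.127 to 0.380). Its mean was 1.23 on the 2 RSM + S arrays that run with the stated dyes and 1.00 on the 2 that run against them, where the means of the other 3 diets lay between -0.70 and -0.15. The other probe was near the pool in RSM + S, at -0.09, -0.19, -0.00 and -0.04, and in HBM + S, with a mean of 0.02, but its mean was -1.85 with CG + S and -1.51 with SFM + S (difference of 1.03; limma, adjusted p = 0.000258). It remained past the limits with any single RSM + S fish left out. The probe thus lay below the pool in 8 of 8 fish of CG + S and SFM + S by at least 1.31, and PPC + S fish lay between -0.65 and 0.29. In RSM + S the probe was dim, though both colours were well above background on 4 of 4 arrays. Its mean log2 level was 8.64 in the fish and 8.67 in the pool. The fish level of Ssa#S32009808, not well above background, was 8.42. Whether a fall as large as with CG + S and SFM + S could show from such a pool level was not tested.

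The 58 probes that were lower by the methods' t-test included the 3 above and had means between -2.41 and -0.70, of which 7 were at least 1 in size. They were chosen on the same 4 fish, so that their level in RSM + S is a description. Their median was -1.18, -1.17, -0.47 and -0.55 in fish 1 to 4. Of the 58, 44 (75.9%) were lower in both fish 1 and fish 2 than in either of the others, against 12.7% of all probes tested. Each of these pairs of fish holds 1 array of either direction. The 58 probes moved together on the arrays of the other diets, as given below, so that they are not independent values. The share of 75.9% is a description that was not tested. The probes were bright, with a median log2 signal of 9.20 against 6.76 for all probes tested, and 55 of the 58 were well above background in both colours on 4 of 4 arrays. They had no gene name in the files and none carried the values of an entry of the lists.

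In the 16 arrays of the other diets, which did not enter the choice, these probes went up and down together. Over 57 of them with values on all 16 arrays, Pearson's r between pairs of probes had a median of 0.74, with a lower quartile of 0.08, across arrays that share pools and slides within a diet. Their median was 1.36 in CG + S fish 1 and between -0.21 and 0.23 in the other CG + S fish. It lay between -0.83 and -0.03 in HBM + S, between -0.73 and 0.41 in SFM + S and between -0.23 and 0.28 in PPC + S. The mean of the fish's medians was -0.84 ± 0.38 for RSM + S, while it was 0.38 ± 0.69 for CG + S, -0.60 ± 0.38 for HBM + S, -0.21 ± 0.48 for SFM + S and 0.07 ± 0.24 for PPC + S (SD, n = 4 each). HBM + S overlapped with RSM + S, 3 of its 4 fish lying between -0.83 and -0.73. Over the whole array, 115 probes followed the median of the 58 over those 16 arrays with an r above 0.8, and 39 of the 58 were among them. Without those 39, which were chosen on the RSM + S fish, 57 of the remaining 76 were below 0 in 4 of 4 RSM + S fish, against 6.16% of all probes tested. These 76 were picked for moving with probes chosen on the RSM + S fish. They are therefore not independent of the 58 or of each other, and their count is a description that was not tested.

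**Figure D3:**
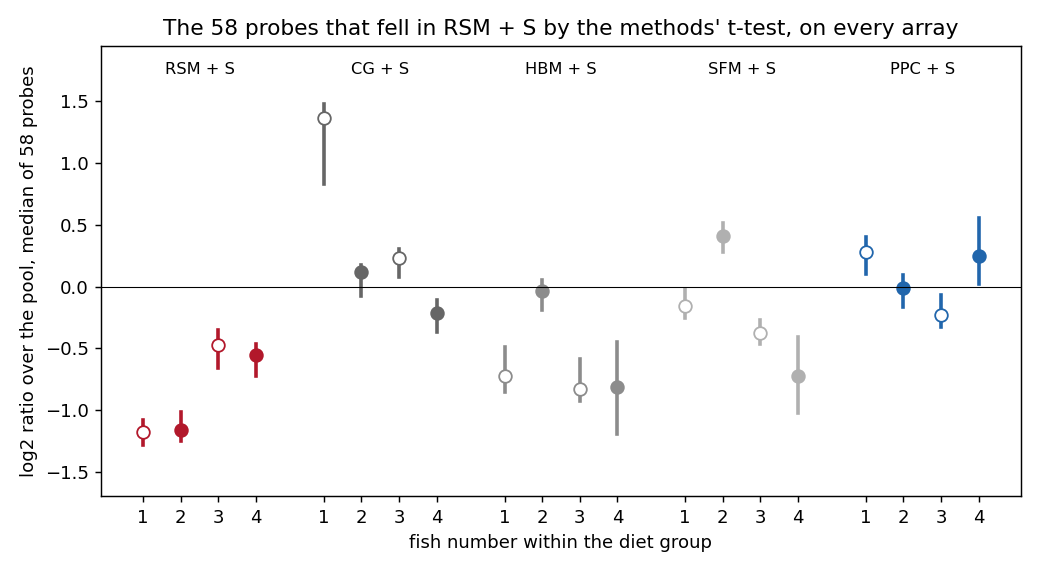
Median log2 ratio (points) and quartiles (bars) of the 58 probes that were lower in RSM + S by the methods' t-test, on each of the 20 arrays; filled points are arrays that run with the stated dyes and open points arrays that run against them. The 4 RSM + S medians lie between -1.18 and -0.47 by choice of the probes, and the other diets spread between -0.83 and 1.36.

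The study lists genes that changed in PPC + S, in 14 functional groups, and 234 entries of these lists could be tied to 1 probe each, 79 listed as up and 155 as down. All had values in 4 of 4 RSM + S fish. The lists were chosen on the PPC + S arrays, so their values there are a description, while RSM + S fish and their pool had no part in the choice. In RSM + S, 0 of the 234 were past the limits (limma, adjusted), against 0.0163% of all probes, and 15 had an unadjusted p under 0.05, 7 higher and 8 lower, a share close to the 5.62% of all probes. Of the 234, 12 lay on the same side of 0 in 4 of 4 fish, a smaller share than the 13.2% of all probes. The SD between RSM + S fish had a median of 0.298 over the 234 genes, against 0.143 over all probes. A change of the same size is therefore less easily called in the listed genes. The 79 genes listed as up had a median of 0.07 in RSM + S, with the medians of single fish between -0.01 and 0.12, and of 1.21 in PPC + S. The 155 genes listed as down had a median of -0.03, with single fish between -0.12 and 0.14, and of -1.32 in PPC + S. Over all probes tested the median was 0.01. The RSM + S mean had the listed sign for 142 of the 234 (60.7%), 50 of those listed as up (63.3%) and 92 of those listed as down (59.4%). Among all probes tested more means lay above 0 than below it, with 9692 from 0 up to 0.25 and 7676 from -0.25 up to 0. The genes listed as up thus leaned to the same side as all probes, and those listed as down to the other side. The share with the listed sign was not tested.

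**Figure D4:**
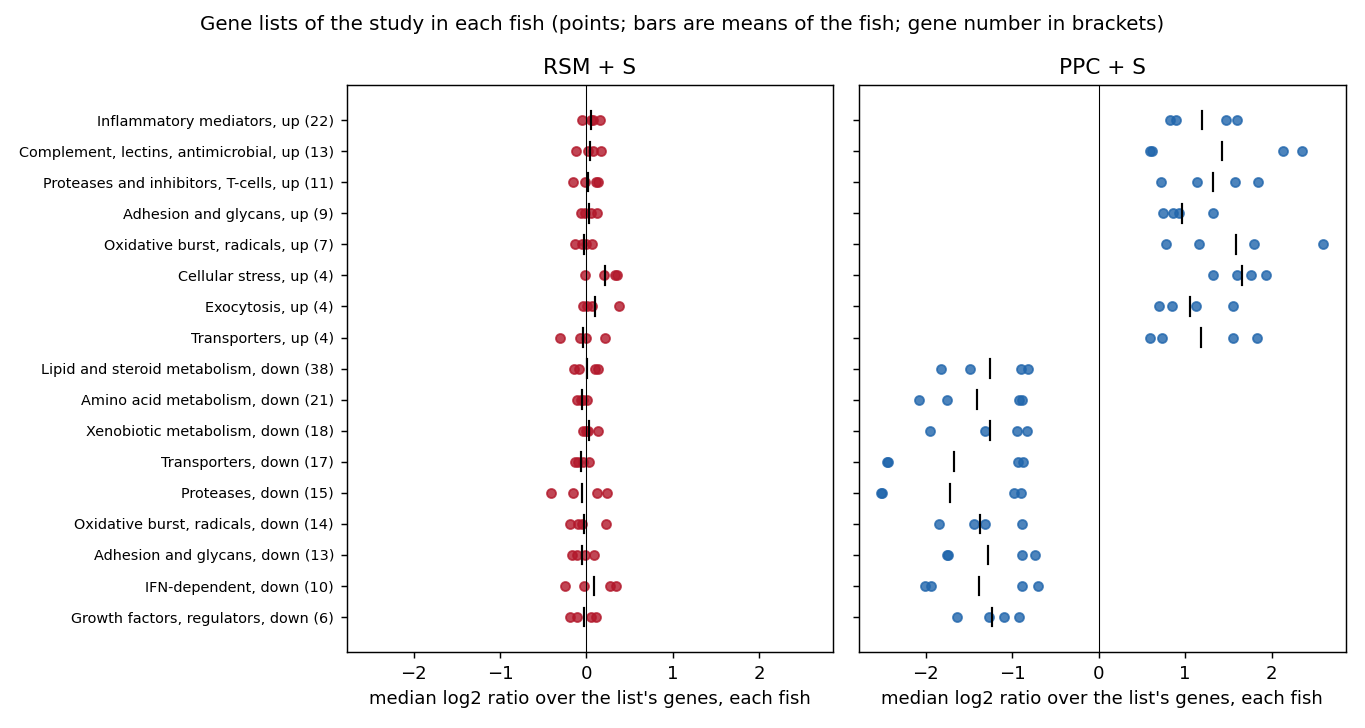
Median log2 ratio over the genes of each list in each fish (points) and the mean of the 4 fish (bars), for RSM + S on the left and PPC + S on the right, with lists split by their listed direction and those with at least 4 genes shown. RSM + S fish lie between -0.42 and 0.37 in every list, whereas the PPC + S fish, on which the lists were chosen, lie between -2.52 and 2.60 and on the listed side of 0.

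Among immune genes, the 22 inflammatory mediators and transducers listed as up had a median of 0.03 in RSM + S (single fish between -0.06 and 0.16). None of the list of 23 had an unadjusted p under 0.05, against 5.62% of all probes. Interleukin-22, a cytokine of epithelial defence, had 0.28, -0.18, 0.07 and -0.12 in RSM + S, against 2.48, 4.15, 1.43 and 3.94 in PPC + S. In RSM + S each colour was well above background in at least a single spot on 2 of 4 arrays. On no array were both spots so in both colours. The TNF decoy receptor, which binds TNF-family ligands without signalling, had 0.32, 0.33, 0.13 and -0.02 in RSM + S, against 1.84, 2.63, 1.66 and 3.10 in PPC + S. Neither gene overlapped between the 2 diets, nor did 15.3% of all probes, and the list was chosen for its change in PPC + S. Annexin A1, an anti-inflammatory phospholipid-binding protein, spread more widely, with -0.78, -0.07, 0.21 and 0.92 in RSM + S and 3.14, 4.76, 3.03 and 0.79 in PPC + S. The widest spread of this list in RSM + S was that of leukotriene B4 12-hydroxydehydrogenase, an enzyme that inactivates leukotriene B4. It had -1.45 and -1.43 in fish 1 and fish 2 but 0.53 and 0.94 in fish 3 and fish 4.

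The list of complement, lectins and antimicrobial proteins had a median of 0.09 in RSM + S over 15 genes, with 1 gene higher and 1 lower at an unadjusted p under 0.05, which 5.62% of all probes had. FBPL4, a lectin, had 1.14, 0.28, -0.12 and 1.52 in RSM + S (mean of 0.71 ± 0.76; limma, unadjusted p = 0.050, adjusted p = 0.884), while its mean was -1.58 with CG + S, -1.95 with HBM + S, 0.23 with SFM + S and 2.57 with PPC + S. Precerebellin-like protein, a lectin listed as up, had 0.02, -0.60, -0.53 and -0.71 (mean of -0.45 ± 0.32; limma, unadjusted p = 0.0139, adjusted p = 0.754). It lay below the pool in 3 of 4 RSM + S fish and above it in every PPC + S fish, where the mean was 2.36. Genes of phagocytes and T cells were also on the lists. Cytochrome b-245 beta, a membrane subunit of the phagocyte oxidase, had between -0.24 and -0.00 in RSM + S, against 0.22 to 2.60 in PPC + S. Its partner neutrophil cytosolic factor 1 had 0.41, 0.12, -0.49 and -0.14 in RSM + S, against 1.16, 2.90, 0.01 and 4.17 in PPC + S. Cytochrome b558 alpha-subunit, of the same complex, spread more widely, with 1.11, -0.18, 0.20 and -1.35 in RSM + S. Its mean was -0.05 ± 1.02 there and 2.70 ± 0.65 in PPC + S. The T-cell receptor beta chain had 0.11, 0.55, 0.81 and -0.18 in RSM + S, against 1.14, 2.64, 3.53 and 2.80 in PPC + S.

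The IFN-dependent list of 11 genes, 10 of them listed as down, had a median of 0.03 in RSM + S. None of the 11 had an unadjusted p under 0.05, against 5.62% of all probes. Some of its genes differed widely between fish. A probe with the values of MHC class I, the peptide-presenting molecule whose alleles differ widely between individuals, had -2.75 and -2.72 in fish 1 and fish 3 but 1.38 and 1.84 in fish 2 and fish 4, so that the sign followed the array direction. The mean of this probe was -0.81 with CG + S, 4.97 with HBM + S, -3.35 with SFM + S and -2.44 ± 0.09 with PPC + S. A probe with the values of MHC class I antigen had -2.64 in fish 2 and between -0.12 and 0.15 in the other 3 fish. The MHC class I probe found through its accession number had 1.35, 0.05, 0.32 and -0.54. In contrast, the MHC class Ia heavy chain lay between -0.20 and 0.16 and beta-2 microglobulin, the shared light chain, between -0.16 and 0.29 in RSM + S, against -3.04 to -0.53 and -1.73 to -0.43 in PPC + S. A gene similar to very large inducible GTPase 1, an interferon-induced protein, had -2.86 in fish 3 and between 0.07 and 1.21 in the other fish.

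Lipid and steroid metabolism was the list in which the RSM + S fish were most often ordered in the same way. Of its 39 genes, 21 (53.8%) were lower in both fish 1 and fish 2 than in either of fish 3 and fish 4, and 1 was higher in both, against 2332 (12.7%) and 2575 of the 18398 probes tested. This order was chosen after the values were seen and was not tested. Apolipoprotein B, the core protein of the particles in which enterocytes export fat, had -1.60, -1.11, 0.32 and 0.75 in RSM + S. Apolipoprotein A-II, a high-density lipoprotein component, had -1.92, -1.07, 0.65 and 0.83. Both thus lay below the pool in fish 1 and fish 2 and above it in fish 3 and fish 4. Means with CG + S, HBM + S and SFM + S were -0.87, -0.58 and -1.04 for apolipoprotein B. For apolipoprotein A-II they were -0.93, -0.86 and -1.77. Acyl-CoA desaturase, which makes monounsaturated fatty acids, had -0.70, -0.73, 0.02 and 0.68, and intestinal fatty acid-binding protein, a carrier of fatty acids within enterocytes, had -0.28, -0.28, 0.54 and 0.28. Their PPC + S fish lay between -1.59 and -1.45 for apolipoprotein B, -3.04 and -1.98 for apolipoprotein A-II, -1.67 and -1.18 for the desaturase, and -3.77 and -1.73 for the binding protein, below every RSM + S fish except in the case of apolipoprotein B. The list was chosen for its change in PPC + S, and 15.3% of all probes did not overlap between the diets either. The other apolipoproteins varied less, A-I-1 between -0.42 and 0.12, A-I-2 between -0.45 and -0.03 and A-IV between -0.15 and 0.12. Carnitine palmitoyl transferase I, which admits fatty acids to mitochondria, differed from the pool by at most 0.07 in any RSM + S fish. The median of the 38 genes listed as down was -0.03 in RSM + S and -1.16 in PPC + S.

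The same order of fish held for single genes of other lists. Lactase-phlorizin hydrolase, a disaccharidase of the enterocyte brush border, had -0.74, -0.64, 1.48 and 1.76 in RSM + S, against -2.16, -3.85, -2.77 and -3.09 in PPC + S. Its means with CG + S, HBM + S and SFM + S were -0.62, -0.84 and -1.20. Cytochrome P450 24A1, which inactivates vitamin D, had -0.49, -0.57, 0.81 and 1.11 in RSM + S, against -2.81 to -1.50 in PPC + S. Fibroblast growth factor 12 went the other way, with 1.79, 1.36, -0.20 and -0.60 in RSM + S, against -1.60 to -0.67 in PPC + S. All listed genes together were in this order in 59 of 234 cases (25.2%) and in the reverse order in 27 (11.5%). Of the 59, 21 were those of lipid and steroid metabolism. Among all probes tested, the shares were 12.7% and 14.0%. In adhesion and glycans, 4 of 22 genes were in this order and 7 in the reverse. Fish 1 and fish 2 were also those with the lower medians of the 58 probes above, and whether they share a tank is not given in the sources used here.

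**Figure D5:**
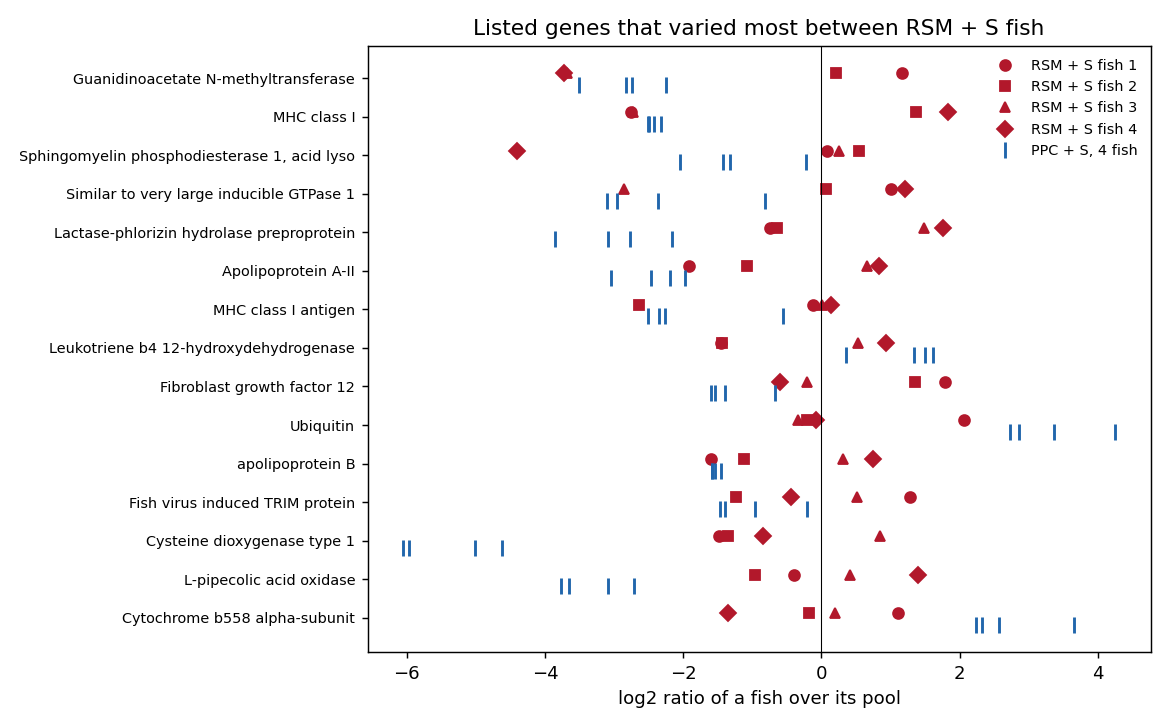
Log2 ratio over the pool in each RSM + S fish (symbols by fish) and in the 4 PPC + S fish (vertical ticks) for the 15 listed genes with the largest SD between RSM + S fish. Guanidinoacetate N-methyltransferase spans -3.72 to 1.17 in RSM + S and MHC class I -2.75 to 1.84, while the apolipoproteins and lactase-phlorizin hydrolase part fish 1 and fish 2 (circles and squares) from fish 3 and fish 4 (triangles and diamonds).

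Single fish also stood out in enzymes of other pathways. Guanidinoacetate N-methyltransferase, which completes creatine synthesis, had 1.17 and 0.21 in fish 1 and fish 2 but -3.68 and -3.72 in fish 3 and fish 4, while the PPC + S fish lay between -3.50 and -2.25. Its RSM + S mean of -1.50 ± 2.56 was the largest in size of all listed genes (limma, adjusted p = 0.988). Acid sphingomyelinase (sphingomyelin phosphodiesterase 1), a lysosomal enzyme of membrane lipid breakdown, had -4.41 in fish 4 and between 0.08 and 0.54 in the other 3 fish. Cysteine dioxygenase type 1, which starts the conversion of cysteine to taurine, had -1.48, -1.35, 0.85 and -0.85 in RSM + S, against -6.05 to -4.61 in PPC + S. Lysine ketoglutarate reductase, of lysine breakdown, lay below the pool in every fish, with -0.09, -0.48, -0.39 and -0.81 (mean of -0.44 ± 0.30; limma, unadjusted p = 0.0113, adjusted p = 0.739), the smallest p among the listed genes. Over the 21 genes of amino acid metabolism listed as down, the median was -0.07 in RSM + S and -1.40 in PPC + S, with 1 gene higher and 2 lower at an unadjusted p under 0.05 (5.62% of all probes).

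Xenobiotic metabolism, 18 genes all listed as down, had a median of 0.01 in RSM + S (single fish between -0.04 and 0.13), against -1.24 in PPC + S. The CYP2K1v2 monooxygenase had between -0.14 and 0.27 in RSM + S, against -3.34 to -0.76 in PPC + S, and UDP-glucuronosyltransferase 2A2, which conjugates foreign compounds for excretion, between -0.10 and 0.51, against -2.51 to -0.98. In this list 1 gene was higher and 1 lower at an unadjusted p under 0.05, which 5.62% of all probes had. The lower one was cytochrome P450 26A1, which breaks down retinoic acid. It had -0.89, -0.54, 0.07 and -0.23 in RSM + S (limma, unadjusted p = 0.0491, adjusted p = 0.884), overlapping with -0.67, -1.33, -1.14 and -2.24 in PPC + S. The list of oxidative burst and protection against free radicals, 21 genes, had a median of -0.02 in RSM + S. In it 1 gene was higher at an unadjusted p under 0.05, which 5.62% of all probes had. Heme oxygenase, which degrades heme, had -0.85, -0.35, -0.42 and 0.22 in RSM + S, against -2.02, -3.20, -1.58 and -3.33 in PPC + S.

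Of 17 transporters listed as down, the median was -0.05 in RSM + S and -1.75 in PPC + S. Aquaporin-8, a water channel, lay between -0.13 and 0.21 in RSM + S and between -4.63 and -2.25 in PPC + S. Monocarboxylate transporter 9 was below the pool in 3 of 4 RSM + S fish and at 0.03 in fish 4 (mean of -0.52 ± 0.44; limma, unadjusted p = 0.0236, adjusted p = 0.826), against -0.89, -2.39, -1.06 and -2.02 in PPC + S. The sulfate transporter found through its accession number had -0.67 in fish 1 and between -0.21 and -0.14 in the other fish. Guanylin, a peptide that regulates salt and water secretion into the gut, had 0.81, 1.47, 1.02 and -0.27 in RSM + S (mean of 0.76 ± 0.74; limma, unadjusted p = 0.0368, adjusted p = 0.874). It was the listed gene with the largest positive mean in RSM + S, and its fish overlapped with 1.61, 0.51, 1.38 and 1.26 in PPC + S. The list of 16 proteases, which also holds protease inhibitors and lactase-phlorizin hydrolase, had a median of -0.05 in RSM + S, the 11 proteases, inhibitors and T-cell genes 0.04, and the 22 genes of adhesion and glycans -0.00. The 7 growth factors and regulators had a median of 0.09, the 4 genes of exocytosis 0.21 and the 4 of cellular stress 0.26.

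RSM + S was also set against PPC + S directly, the diet with the most changed probes. The difference was past the limits for 520 of 17827 probes (2.92%) by limma's adjusted p, with 263 (1.48%) higher in RSM + S and 257 (1.44%) lower. It was past them for 95 of the 234 listed genes, which were chosen for their change in PPC + S. The number of probes rested on single fish, on array direction and on the fit. With fish number as a block it was 18, although the numbers were not taken as pairs. It was 273 without RSM + S fish 1, 125 without fish 2, 206 without fish 3 and 60 without fish 4. Between the arrays that run with the stated dyes, 2 per diet, it was 2156, and between those that run against them 8. The PPC + S fish on these arrays differed from their pool by over 1.6-fold for 15.01% and 18.3% of the probes on the first kind and 5.88% and 5.47% on the second. Arginase-2, which makes ornithine and is among the genes found by accession number, had 0.07, -0.05, 0.39 and -0.10 in RSM + S, against 3.19, 4.37, 3.41 and 4.23 in PPC + S. Medium-chain fatty acyl-CoA hydrolase had -0.38, -0.09, 0.50 and 0.65 in RSM + S, against -1.33, -2.54, -1.76 and -2.40 in PPC + S. Both genes were listed for their change in PPC + S, and neither overlapped between the 2 diets, which was so for 15.3% of all probes. Of the probes chosen in RSM + S, Ssa#GRASP223647629 and Ssa#S32011765 each differed from PPC + S by 1.68, a description, since both were chosen on the same RSM + S fish.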

How the data were processed

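Per spot, the authors deposited a log2 ratio of fish to pool, Lowess-normalized after flagged spots were removed, and scanner files with the median intensity of each spot and its background, from Agilent Feature Extraction (9.6.1 in the submitters' notes, 10.7.1.1 in the file headers). The deposited log10 ratios in the scanner files were made by that software. The paper's methods instead name GenePix Pro for aligning, flagging and quantifying the spots. The deposited log2 ratios and the scanner files can therefore come from different software. No depth applies to arrays, whose number limits the precision, and p-values measure only the spread between these fish. The 2 spots of a probe were averaged, and probes with values in 4 of 4 fish were fitted as a mean against 0 or as differences between diets. This was done with limma 3.58.1 under R 4.3.3. A call needed more than 1.6-fold change together with p under 0.05 after Benjamini-Hochberg adjustment. The fits were tested on simulated data. As alternatives the scanner values were corrected with normexp (offset 50 or 0) and normalized by loess or the median, after spots with an outlier flag in the spot or its background (2.02% to 3.81%) were left out. The test, filters, samples in the fit, blocks and single fish were varied as well. Figures used Python 3.11.15 and matplotlib 3.10.9.

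None of the probe identifiers was among those of 65341 annotated genes. Of 256 entries of the study's lists, 236 matched 1 probe by fold change and SE in PPC + S within 0.0051, 17 matched 2 and 3 matched none. The 234 entries with a probe of their own were used. A name is that of the matching entry, and some can be wrong. Of 19 qPCR and reference genes, 4 were found by accession number, and 2 of these carried the values of the same gene in the lists. The entries named MHC class I and sulfate transporter matched other probes than those found by accession number. Named were all probes past the limits, the largest changes of the methods' t-test and up to 4 genes per list with the largest means, and fewer identifiers are printed because they have no gene names. Other genes were named for their role after values were seen. Members and lists were chosen with earlier results of these data known. Marker lists of cell types and pathways that need gene names were not used here, and qPCR, histology and sequences were not analysed here.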

Additional observations from a re-analysis of the deposited data

Results flagged for a closer look

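Fish that stood apart from the other 3 of RSM + S were sought among 89 sets of 4 values given or ranked here by Dixon's ratio of gap to range. There were 6. Among sets taken without regard to their values, about 1 in 20 would be flagged, or 4.45 of 89. Many of these sets were chosen for their mean or t-test in the same 4 fish, so that the numbers cannot be set against each other. Sphingomyelin phosphodiesterase 1 had -4.41 in fish 4, against 0.08 to 0.54 in the others. MHC class I antigen had -2.64 in fish 2, against -0.12 to 0.15. Ubiquitin, which tags proteins for breakdown, had 2.07 in fish 1, against -0.34 to -0.08, while PPC + S fish lay between 2.74 and 4.25. Gap junction protein Cx32.2, a subunit of channels between neighbouring cells, had -1.28 in fish 1, against -0.01 to 0.12, and the sulfate transporter had -0.67 in fish 1, against -0.21 to -0.14. A probe with no gene name among the 58 lower ones had -0.13 in fish 2, against -2.18 to -1.91 in the others.

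Effects that differed between diets were those of 2 probes for which RSM + S was above the mean of CG + S, HBM + S and SFM + S, by 1.52 for Ssa#GRASP223647629 and by 1.03 for a probe with no gene name, and those of the 520 probes that differed between RSM + S and PPC + S (limma, adjusted p).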

How the results depend on the processing

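The 3 calls of RSM + S against its pool became 61 under the methods' t-test when unadjusted and 0 when adjusted, 93 by limma without adjustment, 1 with all 20 arrays in 1 fit (none of the 3), 1 with median centring, 6 with a normexp offset of 0, and 0 with the dyes taken as stated (25 without adjustment). Leaving out single fish gave between 2 and 5, and 5 without fish 1. The 2 probes that differed from CG + S, HBM + S and SFM + S were 68 without adjustment, and 1 with fish number as a replicate block, with scanner values and with any RSM + S fish left out. With array direction as a block, an alternative chosen after seeing the data, there was 1. From arrays of 1 direction there was 1 with the stated dyes (neither of the 2) and 0 against them, 114 and 157 without adjustment. The 520 probes that differed from PPC + S were 18 with fish number as a replicate block, 1318 without adjustment, 904 with all 20 arrays, 991 with array direction as a block, 2156 and 8 from arrays of 1 direction, and between 60 and 273 with each RSM + S fish left out. The other alternatives kept these counts within 1.5 times. Same-numbered fish are different animals, so that the numbers were not taken as pairs. They share the array direction, and 13 of 16 same-number pairs of RSM + S with another diet deviated together (r over 0.1, lowest 0.04). Pairs of unlike number but the same array direction had r between 0.04 and 0.40. Pairs of opposite direction had r between -0.39 and 0.00.

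Against the RSM + S pool, no listed gene is a call, and list medians have no test. Of 186 list medians under alternatives 7 moved by over 1 SD between fish, all with a fish left out, and of 511 values of named probes and genes 8 did, 7 of them with the software's log ratios, while 7 values of the 3 called probes kept their sign but not their call. Dim probes are limited by signal over background, as for Ssa#S32009808 and interleukin-22, but not for these alone. Precerebellin-like protein and cytochrome b558 alpha-subunit had a fish channel well above background on 3 of 4 RSM + S arrays. Arginase-2 was above it on 4 of 4 but dim, with a mean log2 level of 8.60 in the fish and 8.62 in the pool. Those of interleukin-22 were 8.47 and 8.52.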
